A study of Homo sapiens with 3 samples.

Results

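The genes described here are 49 interferon-stimulated genes (ISGs), taken by symbol from a list of well-known members of the type I interferon response, and all 49 were found among the 29689 genes measured by RNAseq. The study asked how inhibitors of CDK2 and EZH2 alter the transcriptome of triple-negative breast cancer (TNBC). SUM-149, a human TNBC cell line, was grown with Matrigel in the mammary fat pads of female Nu/Nu mice, which lack a thymus and so most T cells but keep other immune cells. The 3 groups were tumors given vehicle, the CDK2 inhibitor dinaciclib (CDK2i) or the EZH2 inhibitor EPZ6438 (EZH2i, drug as named by the label, since the study's text names another EZH2 inhibitor for SUM-149 xenografts), the inhibitors for 10 days. Each group was 1 library, called a tumor below although the labels do not say how many tumors it holds. No spread between tumors could therefore be estimated, no test was made, and every difference below is a difference between 2 libraries.

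Interferons bind receptors at the cell surface, whose JAK kinases phosphorylate STAT proteins. STAT2 and IRF9 are subunits of the complex ISGF3, which binds the interferon-stimulated response element (ISRE) in the promoters of ISGs. Their products sense viral RNA, degrade it, block virus entry or translation, and also limit or amplify the interferon signal itself.

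Most members with a promoter window held letters like this element, which is why 7 of the sequences are shown. An ISRE-like pattern was searched on both strands as GAAA, any 2 bases, GAAA (TTTC, any 2 bases, TTTC on the other strand) in the 250 bases before the start of each RefSeq gene (GRCh38.p14). Of the 39 members with such a window, 27 held it (69.2%), against 3.71% of all 27305 genes. A GAS-like pattern, TTCNNNGAA, stood in 12 of the 39 (30.8%) and in 8.09% of all genes. Windows of the same genes can overlap, and a match is a run of letters, not a shown binding site. The stretches below run 5′ to 3′ on the gene's strand, upstream of the start, with the matches in capitals. They belong to ISG15 and IFIT1, textbook ISGs, to BST2 and IFITM3, abundant in these tumors, and to IFI6, IFITM1 and DDX60, whose differences between tumors are described below.
ISG15: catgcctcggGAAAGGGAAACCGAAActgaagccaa
IFIT1: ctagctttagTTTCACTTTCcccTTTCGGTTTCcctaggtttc
BST2: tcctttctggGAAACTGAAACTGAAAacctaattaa
IFITM3: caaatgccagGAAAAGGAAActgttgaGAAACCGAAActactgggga
IFI6: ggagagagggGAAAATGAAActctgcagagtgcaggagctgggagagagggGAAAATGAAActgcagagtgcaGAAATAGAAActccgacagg
IFITM1: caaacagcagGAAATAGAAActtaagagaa
DDX60: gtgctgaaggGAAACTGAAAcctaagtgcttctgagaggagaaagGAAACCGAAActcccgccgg

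In GRCh38.p14 these stretches lie at chr1:1013374-1013409 on the plus strand (ISG15), chr10:89392497-89392539 on the plus strand (IFIT1), chr19:17405735-17405770 on the minus strand (BST2) and chr11:320876-320922 on the minus strand (IFITM3). Those of IFI6, IFITM1 and DDX60 lie at chr1:27672266-27672358 (minus), chr11:313990-314019 (plus) and chr4:168318786-168318850 (minus). IFI6 held 3 matches, at 156, 115 and 93 bases before its start, and IFITM1 held 1 at 40 bases before. In IFIT1 the pattern stood on the opposite strand, 116 and 103 bases upstream. STAT2, UBE2L6, IRF9 and OAS1 had a window without the ISRE-like letters, while those of IRF9 and OAS1 held the GAS-like ones.

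Expression was given as log2 FPKM, the fragments of a gene scaled to its exon length and to the mapped fragments of the library, so that levels of different genes can be set side by side per length. In the vehicle tumor 10 members lay above log2 FPKM 3 (FPKM 8), 17 between 0 and 3, and 18 below 0, and 4 were listed at FPKM 0. Their summed FPKM was 465 in the vehicle, 539 in the CDK2i and 441 in the EZH2i tumor, or 0.0972%, 0.125% and 0.109% of the summed FPKM of all genes. Most of that sum came from 4 genes per library (66.0%, 68.0% and 63.8%). The tumors thus combined a few abundant members, with BST2, IFITM3 and IFITM2 at the top, and many ISGs at low levels, as the plot of levels by tumor shows. The median member still lay above 55.4%, 59.9% and 57.4% of all genes in vehicle, CDK2i and EZH2i.

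**Figure D1:**
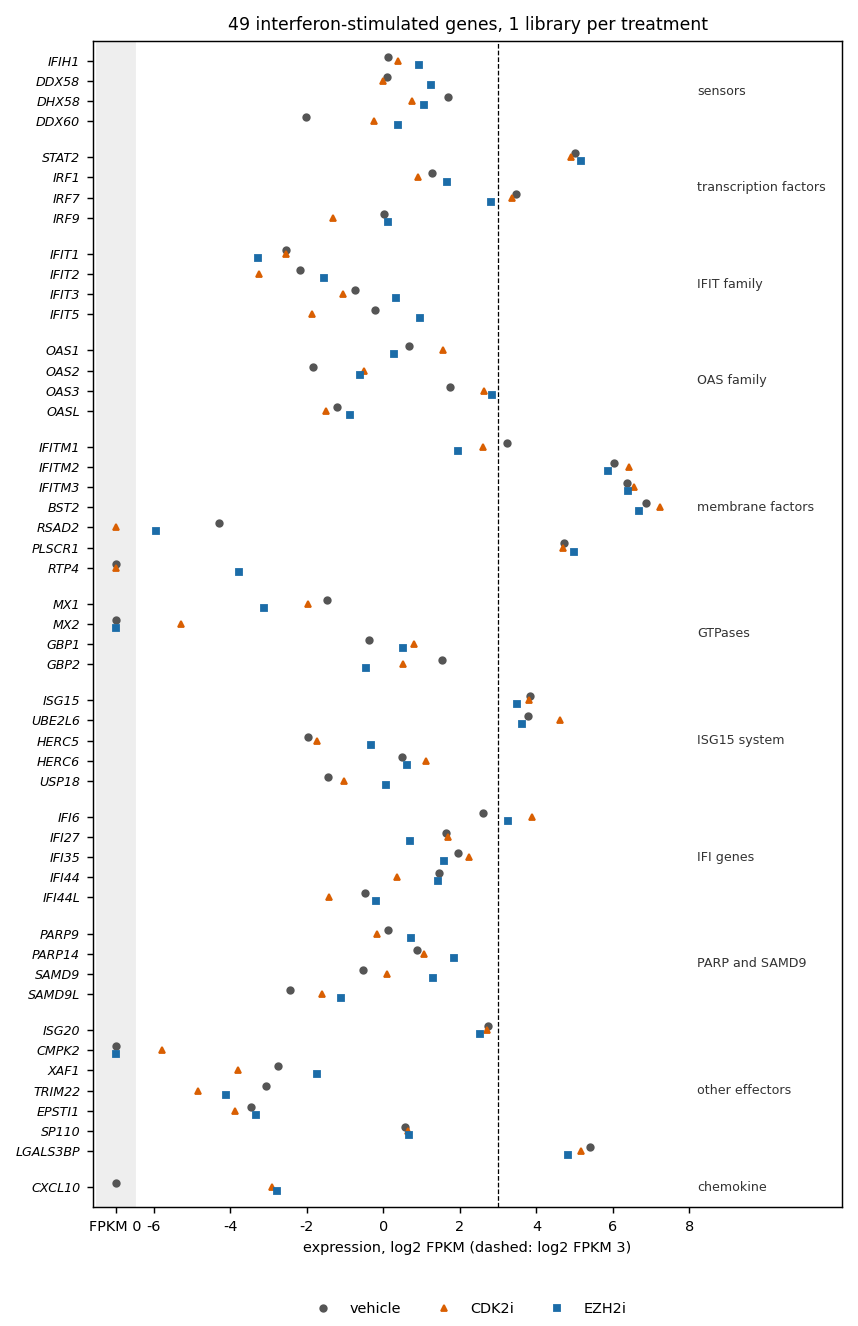
Log2 FPKM of the 49 members in the vehicle (circle), CDK2i (triangle) and EZH2i (square) tumors, 1 library each, grouped by role. Symbols in the grey band are FPKM 0, and the dashed line is log2 FPKM 3. BST2, IFITM2 and IFITM3 lie above 5.8 in every tumor, while RTP4, MX2, CMPK2 and CXCL10 are at FPKM 0 in at least 1 tumor.

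A member was called where it differed by more than 2-fold between 2 tumors and the higher level exceeded log2 FPKM 3, the fold and expression thresholds of the study. Of 11 members that reached that level in the CDK2i or vehicle tumor, 1 was called higher with CDK2i (IFI6) and 0 lower, where 3.27% of all 6632 genes at that level were called higher and 8.07% lower. Against vehicle, EZH2i gave 0 calls higher and 1 lower (IFITM1) among the 11, beside 8.93% and 4.42% of 7414 genes. Between EZH2i and CDK2i none of 10 members was called, beside 17.5% higher and 6.53% lower of 7394 genes. With 10 or 11 members at that level, 1 call is too few to set the list apart from the background. The comparisons share their libraries, so the vehicle tumor enters both contrasts against it.

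IFI6, an interferon-induced mitochondrial protein that protects cells from apoptosis, was the member called higher with CDK2i. Its log2 FPKM was 2.61 with vehicle, 3.89 with CDK2i and 3.27 with EZH2i. The CDK2i level was thus the highest and the vehicle level the lowest. The log2 change was 1.28 with CDK2i (2.43-fold) and 0.66 with EZH2i, with 95% counting intervals of 0.76 to 1.82 and 0.10 to 1.24. These intervals rest on at least 43, 119 and 71 fragments in the vehicle, CDK2i and EZH2i libraries and cover counting error only, not differences between tumors, and reads from PCR are not independent molecules. Of the 31-base words of its longest transcript, 21.6% also stood in a transcript of another gene, most of them in LINC02574. How reads shared between genes were counted is not known, so part of its signal may not be its own. IFI6 lies at chr1:27992575-27998723 on GRCh37.

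The membrane-associated restriction factors held the highest levels of the list. BST2 (tetherin), which keeps budding virions on the cell surface, had a log2 FPKM of 6.87 with vehicle, 7.24 with CDK2i and 6.69 with EZH2i. It was the highest member in all 3 tumors, above 98.5% of all genes in the vehicle tumor. Its log2 change was 0.37 with CDK2i (counting interval 0.23 to 0.52) and -0.18 with EZH2i (-0.34 to -0.01), and the sign of the EZH2i value turned when libraries were set to equal summed FPKM (0.064) and when a trend of the changes over GC content and transcript length was removed (0.30). IFITM3 and IFITM2 block fusion of virus with endosomes. IFITM3 stood at a log2 FPKM of 6.38, 6.56 and 6.39 in vehicle, CDK2i and EZH2i, and IFITM2 at 6.02, 6.41 and 5.87. Both were at their highest level with CDK2i, while their log2 changes with EZH2i were 0.012 and -0.15 with counting intervals that spanned 0.

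IFITM1, the family member found at the cell surface, was the 1 member called lower with EZH2i. Its log2 FPKM was 3.22 in vehicle, 2.60 in CDK2i and 1.95 in EZH2i, so the vehicle tumor was highest and the EZH2i tumor lowest. The log2 change was -1.27 with EZH2i (counting interval -1.79 to -0.77, at least 111 and 48 fragments in vehicle and EZH2i) and -0.63 with CDK2i (-1.06 to -0.20). With that trend removed the EZH2i value was -0.81, under the 2-fold threshold. Reads of this gene are hard to place, since 42.6% of its 31-base words also stood in another gene, 16.7% in IFITM3. IFITM1 lies at chr11:310041-315272 on GRCh37, in the cluster that also holds IFITM2 and IFITM3.

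PLSCR1, a phospholipid scramblase, had a log2 FPKM of 4.72, 4.70 and 4.99 in vehicle, CDK2i and EZH2i. Its levels spanned 0.29 on the log2 scale, and the sign of both changes against vehicle depended on the scaling or the trend. RSAD2 (viperin) and RTP4 were near or at 0. The smallest whole numbers of fragments that the values of RSAD2 allow were 3, 0 and 1 in vehicle, CDK2i and EZH2i, and those of RTP4 were 0, 0 and 1. A count of 0 allows up to 3 fragments, or an FPKM of 0.0323 for RSAD2 in the CDK2i tumor and 0.119 for RTP4 in the vehicle tumor.

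ISG15 is a ubiquitin-like protein that is joined to targets by UBE2L6 and HERC5 and removed by USP18. ISG15 itself had a log2 FPKM of 3.82 in vehicle, 3.80 in CDK2i and 3.49 in EZH2i, and both counting intervals of its change against vehicle spanned 0. UBE2L6, the E2 enzyme, stood at a log2 FPKM of 3.77, 4.61 and 3.62 in the same order, with the CDK2i tumor above the others. Its log2 change of 0.84 with CDK2i (counting interval 0.53 to 1.17) was the nearest below the 2-fold threshold among the 11 members that reached the expression minimum, and that of EZH2i against CDK2i, -0.99 (-1.33 to -0.67), also lay just short of it. The UBE2L6 value with CDK2i passed 2-fold after median centring (1.03) and after removal of the trend (1.07).

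The ligase HERC5 and the protease USP18 were low and highest in the EZH2i tumor. HERC5 had a log2 FPKM of -1.98 in vehicle, -1.75 in CDK2i and -0.33 in EZH2i, and its log2 change with EZH2i was 1.65 (counting interval 0.79 to 2.59). USP18 stood at a log2 FPKM of -1.46, -1.03 and 0.06, with a log2 change of 1.52 with EZH2i (0.59 to 2.55). Both stayed more than 2-fold higher with EZH2i after removal of the trend (1.24 and 1.14). HERC6 was highest in the CDK2i tumor, at a log2 FPKM of 1.13 against 0.49 in vehicle and 0.61 in EZH2i.

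Most members lay under the expression minimum, so the low range was also read with the 2-fold threshold alone. Among 10720 genes with a mean log2 FPKM of -2 to 3 and no value at 0, 28 were members, a range chosen after the values had been seen. With CDK2i 3 of the 28 were more than 2-fold higher (DDX60, OAS2 and GBP1) and 4 lower (IRF9, IFIT5, GBP2 and IFI44), beside 7.91% and 23.3% of all genes of the range. With EZH2i 10 of 28 (35.7%) were higher (DDX58, DDX60, IFIT3, IFIT5, OAS2, OAS3, HERC5, USP18, SAMD9 and SAMD9L) and 2 lower (GBP2 and MX1), beside 18.9% and 9.37%. Between EZH2i and CDK2i, 9 were higher with EZH2i and 1 lower (OAS1), beside 37.4% and 9.32%. As deposited, the share of members higher with EZH2i than with vehicle was above that of all genes, and the share higher with EZH2i than with CDK2i (32.1%) was below it. With the trend over GC content and length removed, 4 of the 28 remained more than 2-fold higher with EZH2i (DDX60, HERC5, USP18 and SAMD9), beside 8.11% of the 7842 genes of the range with a GC value. Since these were 73.2% of the range, nothing is read from the shares without the trend, here or below. After median centring 5 of the 28 were higher with EZH2i, beside 11.7% of all genes of the range. Between the treated tumors, centring gave 2 members higher with EZH2i and 5 lower, beside 22.8% and 15.2%. Removal of the trend also gave 2 and 5, beside 20.4% and 11% of the genes with a GC value. At equal summed FPKM 9 were higher and 1 lower, beside 40.6% and 8.54%. With CDK2i, centring gave 6 higher and 2 lower (beside 10% and 19.1%). Removal of the trend gave 3 and 2, beside 8.48% and 16.3% of the genes with a GC value. On the log2(FPKM + 1) scale, which shrinks differences of low genes, 1 member was more than 2-fold higher with EZH2i and 2 lower, and with CDK2i 0 in either direction. All genes of the range gave 5.71% higher and 2.2% lower with EZH2i, and 1.86% and 6.79% with CDK2i.

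Sensors of viral RNA made up the first group of this range. DDX60, a helicase that promotes signaling by the sensor encoded by DDX58 (RIG-I), had the highest log2 change against vehicle in both treated tumors. Its log2 FPKM was -2.03 in vehicle, -0.25 in CDK2i and 0.39 in EZH2i, so that vehicle was far below the others. The log2 change was 1.78 with CDK2i (counting interval 1.14 to 2.48) and 2.41 with EZH2i (1.79 to 3.09), on at least 25, 98 and 139 fragments in vehicle, CDK2i and EZH2i. Under median centring, equal summed FPKM and the removed trend, its values stayed between 1.87 and 1.96 with CDK2i and between 1.64 and 2.65 with EZH2i.

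DDX58 and IFIH1 (MDA5), the sensors themselves, were highest in the EZH2i tumor. DDX58 had a log2 FPKM of 0.10 in vehicle, -0.02 in CDK2i and 1.25 in EZH2i, and its log2 change with EZH2i was 1.15 (counting interval 0.72 to 1.59) and 0.49 without the trend. Nearly all of its words (89.6%) also stood in an annotated gene without a symbol that overlaps it on the same strand. IFIH1 stood at a log2 FPKM of 0.11, 0.37 and 0.92 in the same order. Without the trend its EZH2i minus CDK2i value was -0.11, so EZH2i was no longer highest. DHX58 (LGP2), the sensor of the group with the highest mean, went the other way, at 1.69 with vehicle, 0.75 with CDK2i and 1.07 with EZH2i on the log2 FPKM scale. Its log2 change was -0.95 with CDK2i (-1.53 to -0.38) and -0.63 with EZH2i (-1.19 to -0.08), so this member and DDX60 differed in opposite directions from vehicle in both treated tumors.

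Of the transcription factors, STAT2, the ISGF3 subunit that gives the complex its activation domain, had a log2 FPKM of 5.01 in vehicle, 4.91 in CDK2i and 5.16 in EZH2i. These levels lay within 0.25 of each other, on at least 1156 fragments per library, and the sign of each change turned with the scaling. IRF9, which gives ISGF3 its DNA contact, was much lower, at a log2 FPKM of 0.01, -1.33 and 0.12. It was lowest with CDK2i, with a log2 change of -1.34 (counting interval -2.36 to -0.38) on at least 31 and 14 fragments. IRF7, which amplifies interferon production, stood at a log2 FPKM of 3.46, 3.35 and 2.80, and its log2 change with EZH2i was -0.66 (-1.05 to -0.27) and -0.16 without the trend. IRF1 had a log2 FPKM of 1.27, 0.91 and 1.67, lowest with CDK2i and highest with EZH2i.

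The IFIT proteins bind foreign RNA and block its translation, and all 4 of their genes were low. IFIT5, the highest by its mean, had a log2 FPKM of -0.22 in vehicle, -1.87 in CDK2i and 0.96 in EZH2i. It was the member with the widest gap between the treated tumors, 2.83 on the log2 scale for EZH2i minus CDK2i (counting interval 2.16 to 3.57) and 2.05 without the trend. Its log2 change with EZH2i, 1.18 as deposited, was 0.93 after centring and 0.54 without the trend. IFIT3 stood at a log2 FPKM of -0.74, -1.05 and 0.33, and IFIT2 at -2.17, -3.25 and -1.54. IFIT2, IFIT3 and IFIT5 were each lowest with CDK2i and highest with EZH2i. Both counting intervals of IFIT2 against vehicle spanned 0, on at least 13, 7 and 21 fragments. For IFIT3 the CDK2i interval also spanned 0 (-1.19 to 0.57). IFIT1, the most used reporter of the family, had a log2 FPKM of -2.54, -2.56 and -3.28 on at least 8, 9 and 5 fragments, and the counting intervals of its changes spanned 0.

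The oligoadenylate synthetases activate RNase L on double-stranded RNA. OAS3 had a log2 FPKM of 1.74 in vehicle, 2.63 with CDK2i and 2.83 with EZH2i, and both treated tumors lay above vehicle. Its log2 changes were 0.89 (counting interval 0.63 to 1.15) and 1.10 (0.84 to 1.36), the latter 0.65 without the trend. OAS2 stood at a log2 FPKM of -1.85, -0.50 and -0.62, with log2 changes of 1.35 and 1.23. Its counting intervals were 0.33 to 2.49 and 0.17 to 2.39, on at least 11, 32 and 27 fragments. The EZH2i value was 0.985 after centring and 0.75 without the trend. OAS1 was highest with CDK2i, at a log2 FPKM of 1.56 against 0.67 in vehicle and 0.27 in EZH2i. OASL, which lacks the synthetase activity, ranged from -1.51 to -0.87 in log2 FPKM, and the counting intervals of its changes spanned 0.

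Among the dynamin-like and guanylate-binding GTPases, GBP2 was the highest by its mean, at a log2 FPKM of 1.54 in vehicle, 0.52 in CDK2i and -0.46 in EZH2i. Vehicle was highest and EZH2i lowest, with log2 changes of -1.02 (counting interval -1.39 to -0.66) with CDK2i and -1.999 (-2.49 to -1.53) with EZH2i, and -0.85 and -2.53 without the trend. Its neighbour GBP1 differed the other way, at a log2 FPKM of -0.39, 0.80 and 0.52, with log2 changes of 1.18 (0.64 to 1.76) and 0.90 (0.33 to 1.496). The 2 genes shared 2.92% of the words of GBP1, while 13.0% of them also stood in the pseudogene GBP1P1. MX1, an antiviral GTPase widely read as a marker of interferon activity, was low, at a log2 FPKM of -1.47, -1.97 and -3.12, and its log2 change with EZH2i was -1.65 (-3.12 to -0.36) on at least 21 and 7 fragments. MX2 was at FPKM 0 in vehicle and EZH2i, with at least 1 fragment in CDK2i.

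The other IFI genes ranged from -1.41 to 2.25 in log2 FPKM. IFI44 stood at a log2 FPKM of 1.46 in vehicle, 0.34 in CDK2i and 1.42 in EZH2i, and its paralog IFI44L at -0.48, -1.41 and -0.19, so that CDK2i was lowest for both. Their log2 changes with CDK2i were -1.12 (counting interval -1.70 to -0.55) and -0.93 (-1.56 to -0.32). IFI27 was lowest with EZH2i, at a log2 FPKM of 0.70 against 1.63 in vehicle and 1.68 in CDK2i. IFI35 had a log2 FPKM of 1.94, 2.25 and 1.58.

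PARP9 and PARP14, ADP-ribosyltransferase family members that modulate interferon responses, and the SAMD9 pair, which restrict poxviruses, were highest with EZH2i as deposited. PARP14, the highest of the 4 by its mean, had a log2 FPKM of 0.86 in vehicle, 1.07 in CDK2i and 1.84 in EZH2i, with a log2 change of 0.97 with EZH2i that was 0.24 without the trend. SAMD9 stood at a log2 FPKM of -0.54, 0.10 and 1.30, with log2 changes of 0.65 (counting interval 0.08 to 1.23) and 1.84 (1.34 to 2.37), the latter 1.01 without the trend. SAMD9L was at a log2 FPKM of -2.44, -1.60 and -1.11 and PARP9 at 0.11, -0.17 and 0.72. The GC contents of the 4 were 36.0 to 43.4%, and the EZH2i value of PARP9 turned sign without the trend (-0.05), with CDK2i at -0.17. Without it SAMD9L and PARP14 were no longer highest with EZH2i (EZH2i minus CDK2i -0.38 and -0.03), while SAMD9 was (0.30).

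Of the remaining effectors, LGALS3BP, a secreted galectin ligand, was the highest, at a log2 FPKM of 5.41 in vehicle, 5.17 with CDK2i and 4.84 with EZH2i. Its log2 change was -0.24 (counting interval -0.42 to -0.06) with CDK2i and -0.57 (-0.77 to -0.38) with EZH2i, both lower than vehicle. The exonuclease ISG20 stayed between 2.53 and 2.74 in log2 FPKM and the nuclear body protein SP110 between 0.57 and 0.67. XAF1, a proapoptotic antagonist of XIAP, had a log2 FPKM of -2.76, -3.79 and -1.74 on at least 9, 5 and 19 fragments, and its log2 change with EZH2i of 1.02 was 0.77 after centring and 0.56 without the trend. Of its words 74.0% also stood in PRAL, annotated on the opposite strand, and without a stated strand in counting the 2 cannot be told apart. TRIM22 and EPSTI1 lay at or below -3.06 and -3.33 in log2 FPKM in every tumor. CMPK2, a nucleotide kinase, was at FPKM 0 in vehicle and EZH2i with at least 1 fragment in CDK2i. CXCL10, the chemokine of the list, was at FPKM 0 in vehicle (a count of 0 allows up to an FPKM of 0.152). It had at least 2 fragments in each treated tumor.

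**Figure D2:**
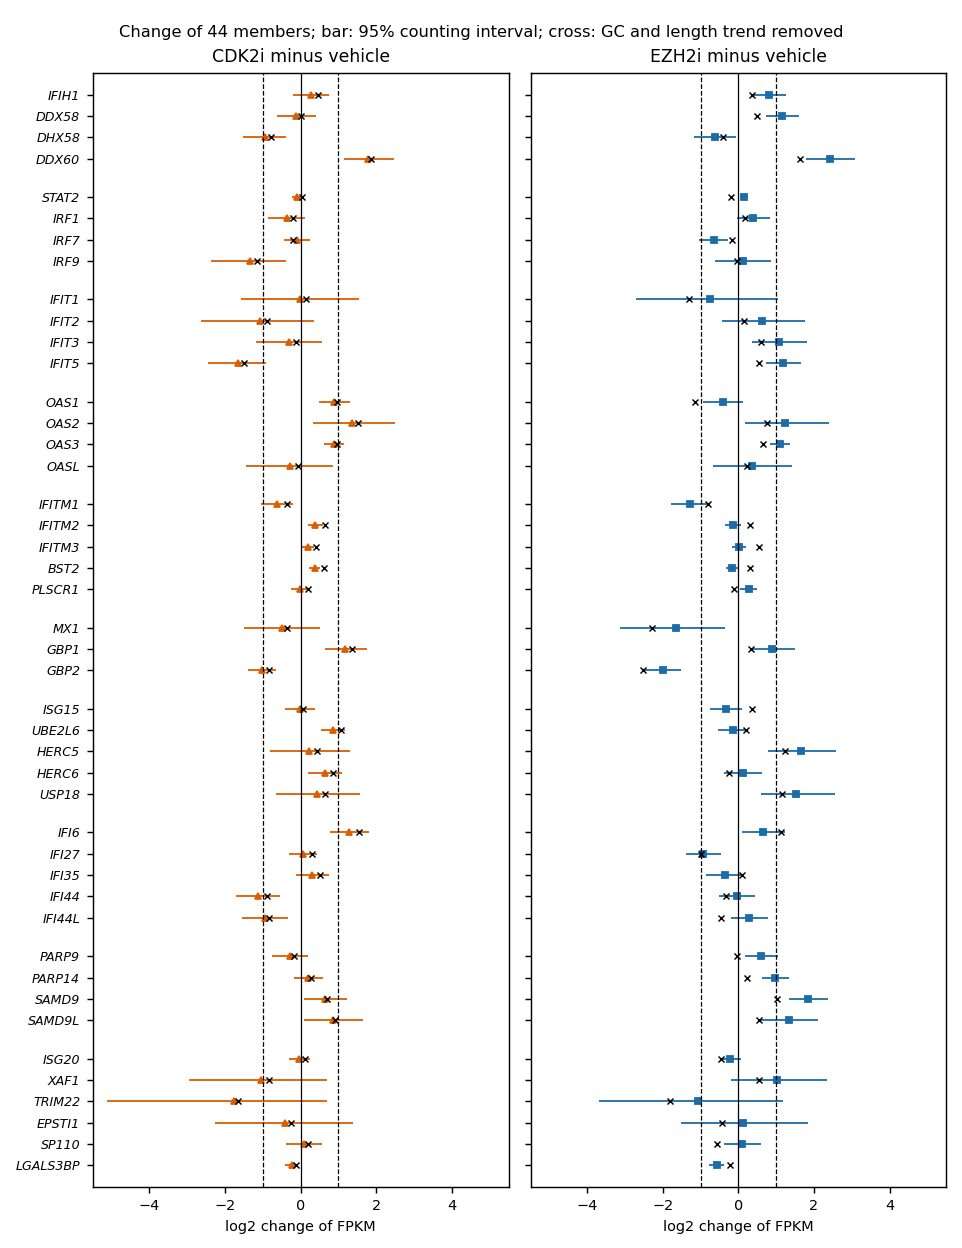
Log2 change of FPKM against vehicle for the 44 members with no value at 0, CDK2i on the left and EZH2i on the right. Bars are 95% counting intervals, crosses are values after removal of the trend over GC content and transcript length, and dashed lines mark 2-fold. DDX60 lies above the upper line in both panels, and GBP2 lies below the lower one in both, at -1.02 and -1.999.

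Across the 44 members with no value at 0, 20 were higher and 24 lower with CDK2i, with a median log2 change of -0.02, and 27 were higher and 17 lower with EZH2i, with a median of 0.14. Of the 20031 genes with no value at 0, 8086 were higher and 11932 lower with CDK2i, and 11768 higher and 8252 lower with EZH2i. The medians over these genes were -0.19 and 0.19. The counting interval lay above 0 for 13 members and below 0 for 8 with CDK2i, and above for 17 and below for 8 with EZH2i. The tumors differed in scale as well, since centring on the median gene moved the CDK2i values by 0.18 and the EZH2i values by -0.25. Relative to it, 27 members were higher and 17 lower with CDK2i, and 21 higher and 23 lower with EZH2i. Under the deposited scale, centring, equal summed FPKM and the removed trend alike, 20 members stayed higher and 17 lower with CDK2i, and 18 higher and 10 lower with EZH2i. No share of all genes was computed for the counting intervals, the centred counts, the kept directions or the pairs named next. Those counts are therefore not set against a background. More than 2-fold higher in both treated tumors as deposited were DDX60 and OAS2, and more than 2-fold lower in both were GBP2 and TRIM22, the latter on at least 6, 2 and 3 fragments. Both after centring and without the trend, OAS2 with EZH2i and GBP2 with CDK2i lay under 2-fold.

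The EZH2i change followed sequence composition, within the list as over all genes. Across the 44 members, Spearman's rho was -0.36 with GC content and 0.34 with the length of the longest transcript, and across 10147 genes with a mean log2 FPKM above 1 it was -0.57 and 0.45. These points share libraries and are not independent, so no p is given. The 9 members under 40% GC had a median log2 change of 1.15 with EZH2i, the 17 of 40 to 50% one of 0.63 and the 18 above 50% one of -0.16. Those of the 10147 genes in the same ranges had 0.69, 0.43 and -0.13. Many members have a mean log2 FPKM below 1, so the levels compared differ. After removal of the trend the members' medians were 0.49, 0.16 and 0.14. With CDK2i rho was 0.11 with GC content across the members. The part of library preparation or RNA quality in this trend was not tested.

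**Figure D3:**
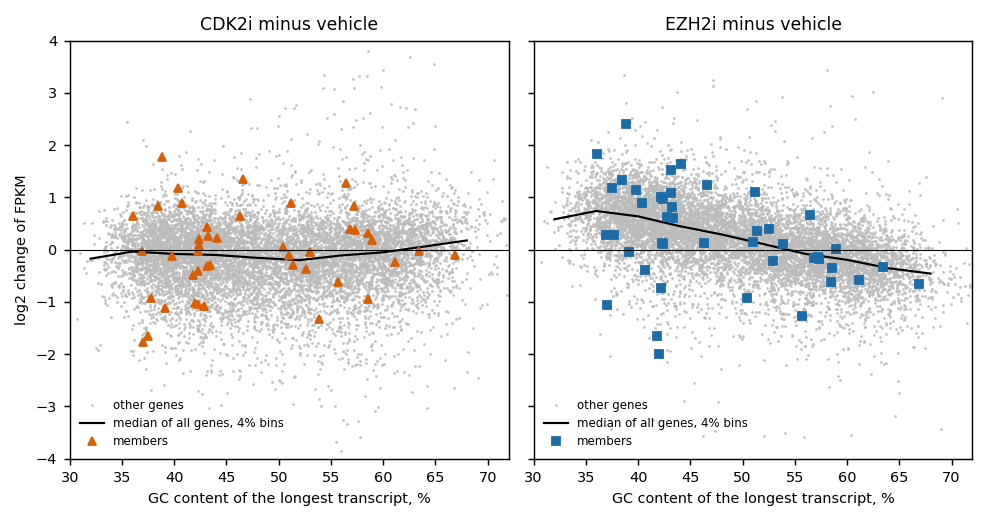
Log2 change of FPKM against GC content of the longest transcript, CDK2i on the left and EZH2i on the right. Colored symbols are the 44 members, grey points other genes with a mean log2 FPKM above 1 (axis limited to changes of -4 to 4), and the line is the median of these genes in bins of 4% GC. With EZH2i the line falls from left to right and the members spread around it, from DDX60 at 2.41 to GBP2 at -1.999.

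Members with and without the ISRE-like letters were also set side by side. The 24 members with a match and no value at 0 had median log2 changes of -0.02 with CDK2i and 0.28 with EZH2i, and the 11 without had 0.08 and 0.12. Their median levels were 0.77 and 0.74 in log2 FPKM.

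The genes that carry the interferon signal were read from a list of 36 further genes, 27 of which had a row in the table. The ligands of that list (type I, II and III interferons) are not among those rows and were not analysed here. At the threshold above, 1 of 14 pathway genes was called higher with CDK2i (SOCS3), beside 3.27% of all genes at that level, and 2 of 16 (12.5%) with EZH2i (SOCS1 and TBK1), beside 8.93%. The count called lower was 0 in either, beside 8.07% and 4.42%. For EZH2i against CDK2i 4 of 17 (23.5%) were called higher (IFNAR1, TBK1, IRF2 and SOCS1) and 1 lower (SOCS3), beside 17.5% and 6.53%. With so few genes these counts do not set the pathway apart from the background. As deposited 13 of the 27 were higher with CDK2i and 25 with EZH2i, beside 8086 and 11768 of the 20031 genes with no value at 0. Of the 27, 20 were higher with EZH2i after median centring, 27 at equal summed FPKM and 19 without the trend. Under every scaling and the removed trend 16 stayed higher. No share of all genes was computed for these counts.

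The receptors were present in all tumors. IFNAR1, a chain of the type I receptor, had a log2 FPKM of 2.44 in vehicle, 1.92 in CDK2i and 3.02 in EZH2i, and IFNAR2, its partner, had 0.78, 0.51 and 1.84. For both, CDK2i was lowest and EZH2i highest, with log2 changes with EZH2i of 0.57 and 1.06 that were -0.06 and 0.36 without the trend. Of the type II receptor, IFNGR1 stood at a log2 FPKM of 5.06, 4.36 and 5.32 and IFNGR2 at 3.79, 4.30 and 4.18. The type III receptor chain IFNLR1 was at 1.72, 0.92 and 2.25 and the shared chain IL10RB at 3.11, 3.21 and 3.24 on the same scale.

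The feedback inhibitors of JAK kinases differed widely between the tumors. SOCS3 stood at a log2 FPKM of 2.49 in vehicle, 5.93 in CDK2i and 2.80 in EZH2i, a log2 change of 3.44 with CDK2i (counting interval 3.12 to 3.77). SOCS1 stood at 0.16, 0.94 and 3.07, a log2 change of 2.91 with EZH2i (2.26 to 3.62). Each was thus high in a different treated tumor. TBK1, the kinase that activates IRF3, was at 1.99, 1.08 and 3.08 in log2 FPKM, and its log2 change of 1.09 with EZH2i was 0.30 without the trend. IRF2, which represses ISG promoters, was lowest with CDK2i and highest with EZH2i, at 3.22, 2.48 and 3.79 in log2 FPKM.

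**Figure D4:**
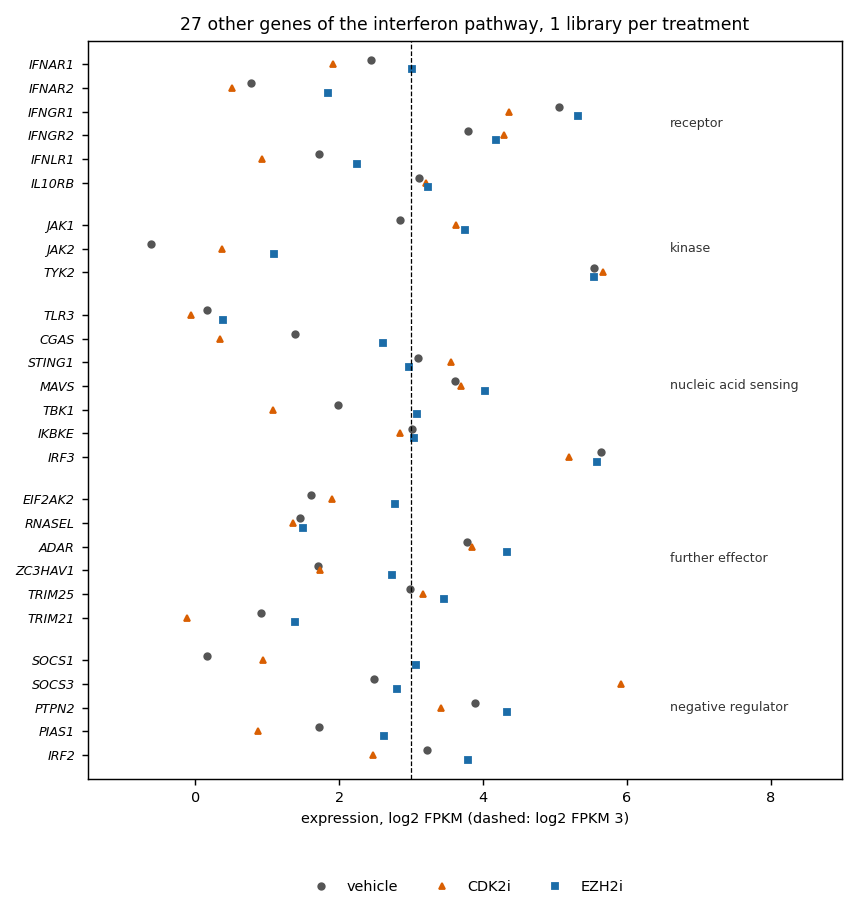
Log2 FPKM of 27 other genes of the interferon pathway in the vehicle (circle), CDK2i (triangle) and EZH2i (square) tumors, 1 library each, grouped by role, with the dashed line at log2 FPKM 3. SOCS3 is far to the right in the CDK2i tumor at 5.93, and SOCS1 is highest in the EZH2i tumor at 3.07.

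The libraries were checked against cell markers, since many ISGs are also made by host cells whose reads can be mapped to human symbols. All 10 epithelial markers were above FPKM 8 in every tumor, and their summed FPKM was 6533 in vehicle, 15504 in CDK2i and 6314 in EZH2i. Nearly all of the higher sum in CDK2i came from KRT5, KRT6A, KRT14 and KRT17, while EPCAM stood at an FPKM of 66.3, 74.0 and 81.0 and CDH1 at 32.6, 44.8 and 41.3 in the same order. The 4 leukocyte markers reported here summed to 0.914, 0.569 and 0.647 FPKM, with CD3E at 0 in vehicle and EZH2i, NKG7 at 0 in CDK2i and PTPRC (CD45) at 0 in EZH2i. The 8 macrophage and plasmacytoid dendritic markers summed to 9.49, 8.85 and 3.92, most of it CD14, while CD163 and CLEC4C were at 0 in vehicle and EZH2i. Fibroblast markers summed to 24.5, 38.4 and 28.9, with COL1A1 highest in CDK2i (13.0, 25.1 and 16.1) and COL3A1 highest in vehicle (3.88, 1.43 and 0.927). The sums were 0.833, 0.730 and 0.466 for the 3 endothelial markers found. The part of these cells in the members' differences was not tested. In bulk tumors, fewer cells of a type and less RNA per cell cannot be told apart. Depth was similar, at 16785756 fragments in vehicle, 19141355 in CDK2i and 17522330 in EZH2i, as read from the steps of the lowest values, so counting error was of like size in the 3 libraries.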

How the data were processed

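Total RNA of tumors from the 3 groups was sequenced, 1 library each, by the authors' provider; the submitters' processing notes name CASAVA, STAR and hg19. The study's methods give GRCh37/hg19 as genome annotation, without its release, and the counting tool is not given in the sources used here. The authors deposited log2 FPKM per gene, with -9 standing for FPKM 0. Other samples' columns numbered 0. The members and lists were chosen with earlier results of these data known.

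Differences of the deposited log2 values were taken over all genes with numpy 2.4.6 and pandas 2.3.3 in Python 3.11.15. A call needed a fold above 2 and a higher value above log2 FPKM 3. No test was possible with 1 library per group. Depth was read from genes with 1 annotated transcript (GENCODE 44 on GRCh37), whose 1-fragment values gave a sharp peak in 357 to 403 genes (75.8 to 77.0% of their low values lay within 0.02 of a whole number). For each member the smallest whole fragment numbers its values allow, at an exon length of at least 1 part in 3 of its longest transcript, gave exact conditional (Clopper-Pearson) 95% intervals of the ratio. These numbers can be too small, so intervals are wide rather than narrow, and some that span 0 might not at the true numbers. The trend over GC content and log2 length was a polynomial of degree 3, fitted on 10147 genes. Methods were tested on simulated data.

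Values in all tumors were to be given for members past both thresholds, the highest of each role and those nearest the threshold. Others were added after their values were seen. From the lists used, 1 pathway gene and 1 marker are not reported here. Promoters came from RefSeq (GRCh38.p14) and shared 31-base words from GENCODE transcripts.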

Additional observations from a re-analysis of the deposited data

Results flagged for a closer look

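In IFIT5 and XAF1 the treated tumors differed from vehicle by more than 2-fold in opposite directions on the deposited scale, and the difference was not tested, since each group was 1 library. For IFIT5 the log2 change was -1.66 with CDK2i and 1.18 with EZH2i, with counting intervals of -2.45 to -0.91 and 0.73 to 1.65. For XAF1 it was -1.04 with CDK2i and 1.02 with EZH2i, and both counting intervals (-2.96 to 0.69 and -0.20 to 2.34) spanned 0. Of the 31-base words of XAF1, 74.0% also stood in PRAL. Both changes of a gene share the vehicle library. The share of all genes with such opposite changes was not computed. Among the 10720 genes with a mean log2 FPKM of -2 to 3, 23.3% were more than 2-fold lower with CDK2i. With EZH2i 18.9% of them were more than 2-fold higher. IFIT5 lies in that range and XAF1 below it. As deposited both genes passed 2-fold on either side, but the EZH2i value of IFIT5 was 0.93 after median centring and 0.54 without the trend over GC content and length, and that of XAF1 was 0.77 and 0.56, while the CDK2i value of XAF1 was -0.86 and -0.84. The directions were kept under both.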

How the results depend on the processing

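IFI6 was called higher with CDK2i and kept its call under every alternative run. At 1.5-fold the counts of called members were 2 higher and 1 lower with CDK2i, 1 higher and 2 lower with EZH2i, and 2 lower for EZH2i against CDK2i. With no expression minimum they were 4 higher and 7 lower with CDK2i, 11 higher and 5 lower with EZH2i, and 11 higher and 2 lower between the treated tumors. With a minimum of log2 FPKM 1 they were 2 lower with CDK2i, 3 higher and 2 lower with EZH2i, and 3 higher and 1 lower between the treated tumors. Median centring gave 2 higher with CDK2i and 2 lower between the treated tumors. With the trend over GC content and length removed, 2 were higher with CDK2i, and with EZH2i 1 was higher and 0 lower, so the IFITM1 call was lost. The share of all genes called was not computed under these settings, so the counts do not set the list apart from the background. At the main thresholds that share was itself uneven, at 17.5% higher and 6.53% lower for EZH2i against CDK2i. The median log2 change of the members past the minimum was -0.02 with CDK2i, -0.15 with EZH2i and -0.44 between the treated tumors. It was 0.18 with CDK2i and 0.20 with EZH2i without the trend. With EZH2i it was 0.13 with no minimum, -0.40 after centring and 0.090 at equal summed FPKM. Between the treated tumors it was 0.25 with no minimum and -0.87 after centring. Among the alternative values of single named members, 95 stayed within their counting interval and 37 did not. No called member changed sign. No replicate could be left out with 1 library per group. No paired analysis was possible because each group has 1 library. On the smallest fragment numbers allowed, counting error alone left a median interval of 0.50 on either side of a member's log2 change against vehicle. That interval can be too wide, and the spread between tumors is unknown.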
